A study of Mus musculus with 6 samples.

Results

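Cell cycle genes were examined in sorted medullary thymic epithelial cells (mTEC). A panel of 35 gene symbols was used, listed by name, of 52636 gene rows in the count table. It held 26 genes whose products act in G2 and mitosis and 9 whose products act in DNA replication during S phase. All 35 symbols matched 1 gene row each, and all 35 passed the filter on low counts.

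Bulk RNA was sequenced in 6 libraries, 3 for each of 2 populations (tuft-like and non-tuft-like) sorted from the thymi of C57BL/6 mice at 6 weeks of age. Tuft-like cells carried the phenotype UEA+ MHCIIlo CD80- Sca1- CD63- CD117+ CD66a+, and non-tuft-like cells shared every one of these markers except that they were CD117- and CD66a-. Both populations therefore came from the mTEC fraction low in MHC class II and without CD80, and no further genotype, treatment or time point separated them. Nothing in the descriptions says whether the 3 libraries of a population came from separate mice, so p-values measured the spread between libraries, which may be technical. Depth on genes was 32582788, 48369825 and 28704373 counts in non-tuft-like 1, 2 and 3 and 20097617, 34243912 and 45928255 counts in tuft-like 1, 2 and 3, and values are given in that order throughout.

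The labels were checked against tuft cell markers. All 12 were higher in tuft-like libraries at an adjusted p under the threshold of 0.05 in edgeR's quasi-likelihood test (median log2 fold change 4.18), and Dclk1, a kinase that marks tuft cells, stood at 24.8, 23.8 and 36.9 CPM in the non-tuft-like libraries against 1270, 1644 and 1840 CPM in the tuft-like libraries. Here CPM is the count of a gene scaled to a common library size after TMM adjustment, so that levels are comparable between libraries and, only per kb of exon, between genes. Of 12 mature mTEC markers, 9 were lower in tuft-like libraries by the same test, among them Aire, the regulator of tissue-restricted antigen expression, and Cd74, the invariant chain.

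The cell cycle genes fall into successive programmes. Genes for the MCM helicase, for PCNA and for deoxynucleotide synthesis are transcribed from late G1 into S phase, largely under E2F factors. Genes for mitotic cyclins, kinases, kinetochore and spindle proteins are held silent in resting cells and induced in G2, largely through CHR elements and CCAAT boxes bound by the MuvB complexes and NF-Y. In the thymus medulla, dividing transit-amplifying epithelial cells are described as a source of Aire-expressing mTEC, from which tuft-like and other late mTEC derive.

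Promoters are shown for 5 named members that hold a motif of either programme, as examples of the sequences behind the counts that follow. RefSeq promoters of the mouse GRCm38.p6 build, running from 250 bases before to 50 bases after the gene's start, were available for 30 of 35 members. CHR was searched as TTTGAA or TTCGAA, E2F as TTTCCCGC, TTTGGCGC, TTTCGCGC or TTTGCCGC and the CCAAT box as CCAAT, all on both strands and with overlapping matches counted. Capitals mark CHR matches in the first 3 sequences, of G2 and M phase members, whose coordinates are chr4:118437294-118437593, chr7:135716330-135716629 and chr4:124936868-124937167, all on the minus strand.
Cdc20: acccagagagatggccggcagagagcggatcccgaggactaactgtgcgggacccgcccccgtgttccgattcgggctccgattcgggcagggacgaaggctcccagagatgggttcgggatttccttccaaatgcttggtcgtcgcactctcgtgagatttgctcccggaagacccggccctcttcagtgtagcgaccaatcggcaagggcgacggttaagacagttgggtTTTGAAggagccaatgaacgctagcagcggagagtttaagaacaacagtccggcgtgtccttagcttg
Mki67: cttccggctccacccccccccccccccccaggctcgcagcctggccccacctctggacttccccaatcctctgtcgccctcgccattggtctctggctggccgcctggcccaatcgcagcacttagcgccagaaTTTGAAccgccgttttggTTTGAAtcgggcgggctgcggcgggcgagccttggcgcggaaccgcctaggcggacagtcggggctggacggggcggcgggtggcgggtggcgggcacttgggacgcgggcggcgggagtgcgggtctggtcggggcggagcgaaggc
Cdca8: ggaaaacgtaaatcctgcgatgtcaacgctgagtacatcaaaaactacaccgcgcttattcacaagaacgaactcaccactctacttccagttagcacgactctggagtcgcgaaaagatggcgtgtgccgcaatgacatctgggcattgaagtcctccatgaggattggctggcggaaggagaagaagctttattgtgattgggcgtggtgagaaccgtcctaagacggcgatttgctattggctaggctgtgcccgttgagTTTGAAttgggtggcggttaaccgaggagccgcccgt
Capitals mark E2F matches, and in Mcm7 a CHR match as well, in 2 MCM helicase promoters at chr5:138171834-138172133 and chr1:128359656-128359955, also on the minus strand.
Mcm7: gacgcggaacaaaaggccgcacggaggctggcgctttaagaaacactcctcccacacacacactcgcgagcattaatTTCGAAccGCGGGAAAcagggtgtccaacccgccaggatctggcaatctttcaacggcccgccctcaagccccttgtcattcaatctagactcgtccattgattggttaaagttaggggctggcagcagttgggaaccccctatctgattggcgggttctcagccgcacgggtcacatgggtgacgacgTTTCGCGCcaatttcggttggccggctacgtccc
Mcm6: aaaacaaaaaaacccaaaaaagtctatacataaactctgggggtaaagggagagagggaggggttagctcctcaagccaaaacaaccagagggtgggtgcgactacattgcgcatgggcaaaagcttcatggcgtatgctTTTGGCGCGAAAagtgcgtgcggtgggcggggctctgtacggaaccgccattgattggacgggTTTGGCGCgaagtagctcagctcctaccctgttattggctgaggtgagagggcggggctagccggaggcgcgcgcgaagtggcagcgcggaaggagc
A CHR match stood in 18 of 22 G2 and M phase members with a promoter (81.8%), in 2 of 8 S phase members (25.0%) and in 21.7% of 27025 genes in the promoter table. E2F matches showed the opposite order, with 1 of 22 G2 and M phase members (4.55%), 4 of 8 S phase members and 2.605% of all genes. CCAAT was present in 19 of 22 and 7 of 8 members against 41.1% of all genes. These letters are matches in sequence and not measured binding.

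None of the 35 members passed the adjusted threshold (edgeR quasi-likelihood test, Benjamini-Hochberg over 32496 genes), where 687 genes did (2.11%), 309 lower (0.951%) and 378 higher (1.16%) in tuft-like libraries. At an unadjusted p under 0.05, 8 members were lower and 0 higher, against 4.59% of all genes that were lower at that level. The 8 were Mki67, Ccna2, Ccnb1, Plk1, Cdca8, Cenpe, Cdc20 and Rrm2. In bulk RNA, fewer cells in cycle and less of these transcripts per cell cannot be told apart. DESeq2 called 3 members lower (Ccna2, Plk1 and Cdca8), where it called 5.01% of 18579 genes lower, and limma voom called 0. With 3 libraries against 3, an exact permutation test cannot give a p below 0.1 for any single gene.

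Log2 fold changes were negative in 32 of 35 members, with a median of -1.12 beside 0.02 over all tested genes, and 25 of 26 G2 and M phase members were negative (median -1.60) compared with 7 of 9 S phase members (median -0.45). Every tuft-like library lay below every non-tuft-like library in 16 members, 14 of them G2 and M phase genes, where 8.85% of all tested genes showed that order. The reverse order held for 1 member, Ttk, beside 7.18% of all genes. The difference between the programmes was not tested.

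Library tuft-like 3 stood apart from the other 5. It was the lowest library in 27 of 35 members, it lay below 1 CPM in 20 of the 35, and 8 had no count, where 3 counts would be 0.0828 CPM. These counts were not set against the share of all genes. In this library 18339 genes had at least 10 counts, where the other libraries had 26415 to 35551. No non-tuft-like library lay below 1 CPM for any member. When tuft-like 3 was left out, both other tuft-like libraries lay below every non-tuft-like library in 17 members (14.4% of all genes), 16 members were lower at an unadjusted p under 0.05 (6.81% of all genes), and 1 member, Rrm2, passed the adjusted threshold of edgeR's test, where 1.62% of all genes did so and were lower. The median of all members was then -0.58, that of G2 and M phase members -1.38 and that of S phase members -0.34.

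**Figure D1:**
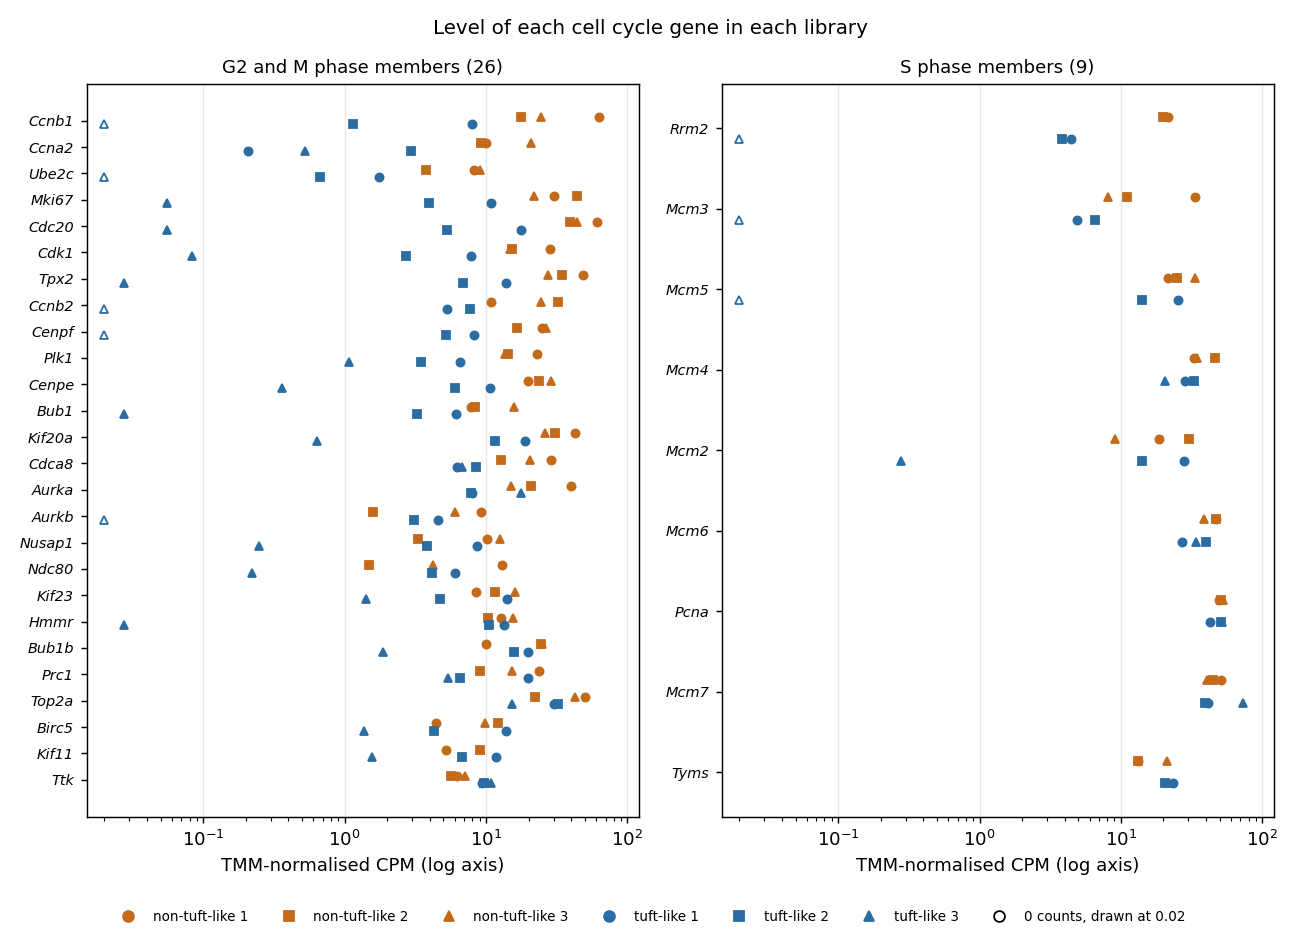
TMM-normalised CPM (log axis) of each of the 35 members in each of the 6 libraries, ordered within each panel by fold change; open symbols are libraries with 0 counts, drawn at 0.02. Most G2 and M phase members lie lower in tuft-like libraries and lowest in tuft-like 3. Of the S phase members, Pcna, Mcm6 and Mcm7 lie between 27.1 and 72.9 CPM in all 6 libraries and Rrm2, Mcm3 and Mcm5 have no count in tuft-like 3.

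Mki67 (ENSMUSG00000031004, chr7:135689784-135716361 of mm10) encodes the chromosome surface protein Ki-67, the most used marker of cycling cells. It stood at 30.1, 44.1 and 22.0 CPM in the non-tuft-like libraries and at 10.9, 3.98 and 0.0552 CPM in the tuft-like libraries. The groups did not overlap, but the tuft-like values spread widely and the log2 fold change of -2.69 ± 1.13 (SE) did not pass (edgeR adjusted p = 0.478). Top2a, the topoisomerase that untangles sister chromatids, was measured at 50.3, 22.1 and 42.6 CPM against 30.4, 32.4 and 15.3 CPM. Its groups overlapped, and its log2 fold change was -0.56 ± 0.43.

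All 4 members of the group of cyclins and Cdk1 were lower without overlap, an order that 8.85% of all tested genes showed. Ccnb1, a mitotic partner of Cdk1, stood at 62.7, 17.7 and 24.6 CPM in non-tuft-like against 7.93, 1.14 and 0 CPM in tuft-like libraries. Its log2 fold change of -3.54 ± 1.37 was the lowest of the 35 in edgeR's test with TMM (edgeR adjusted p = 0.385). In some alternatives Ccna2 was lower, as with library size alone (log2 -3.52 beside -3.31 for Ccnb1). For Ccnb2, the second B-type cyclin, the values were 10.9, 32.2 and 24.7 CPM against 5.33, 7.75 and 0 CPM. Tuft-like 3 held no count of either B-type cyclin. Ccna2, the S and G2 phase cyclin, was singled out after its values were seen, as the member with the lowest unadjusted p: it stood at 10.1, 9.28 and 20.9 CPM against 0.207, 2.95 and 0.525 CPM, with a log2 fold change of -3.44 ± 1.08 (edgeR adjusted p = 0.207). Cdk1, the kinase that drives entry into mitosis, had a log2 fold change of -2.47 ± 1.12.

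Mitotic kinases and checkpoint genes were mixed. Aurka, the kinase of the spindle poles, stood at 39.6, 20.8 and 14.9 CPM in non-tuft-like and at 7.93, 7.78 and 17.8 CPM in tuft-like libraries, and only tuft-like 3 reached the range of the other group. Bub1b, a spindle checkpoint protein, overlapped at 10.03, 24.7 and 25.0 CPM against 19.8, 15.8 and 1.88 CPM, with tuft-like 3 below every other library. Both fold changes missed the threshold (log2 -1.17 ± 0.56 and -0.67 ± 0.76). Of the 6 members of this group, Plk1 and Bub1 were lower (8.85% of all tested genes) and Ttk was higher (7.18%) without overlap. Plk1, Bub1 and Ttk, all kinases, were chosen after their values were seen. Plk1, which acts from mitotic entry to cell division, stood at 22.9, 14.3 and 13.6 CPM against 6.57, 3.48 and 1.08 CPM (log2 -2.19 ± 0.76, edgeR adjusted p = 0.291). Bub1, a checkpoint kinase at the kinetochore, stood at 7.89, 8.37 and 15.9 CPM against 6.12, 3.27 and 0.0276 CPM (log2 -1.77 ± 1.26). Ttk, the kinase that starts checkpoint signalling, was higher in tuft-like libraries, at 6.22, 5.64 and 7.09 CPM against 9.38, 9.73 and 10.9 CPM (log2 0.66 ± 0.65), and did not pass.

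Cdca8 and Birc5 are partners of Aurkb in the chromosomal passenger complex. Cdca8 (borealin) stood at 28.7, 12.9 and 20.4 CPM in non-tuft-like against 6.28, 8.45 and 6.71 CPM in tuft-like libraries. The tuft-like values were tight and below the other group, and the log2 fold change was -1.53 ± 0.53 (edgeR adjusted p = 0.284). Birc5 (survivin) overlapped at 4.42, 12.1 and 9.82 CPM against 13.8, 4.30 and 1.38 CPM, and Aurkb itself had a log2 fold change of -1.12 ± 1.56.

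Kinetochore genes gave the same order of groups for the motor Cenpe and the large corona protein Cenpf. Cenpe stood at 19.7, 23.5 and 28.8 CPM against 10.7, 5.99 and 0.359 CPM, with a log2 fold change of -2.08 ± 0.91 (edgeR adjusted p = 0.519). Cenpf stood at 24.7, 16.5 and 26.5 CPM against 8.18, 5.17 and 0 CPM (log2 -2.34 ± 1.27). Ndc80, which holds the microtubule end, overlapped, with a log2 fold change of -0.85 ± 1.25.

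Among spindle and midzone genes, Tpx2, an activator of Aurka, stood at 48.7, 34.4 and 27.6 CPM in non-tuft-like against 13.8, 6.84 and 0.0276 CPM in tuft-like libraries. Kif20a, a kinesin of cell division, stood at 42.7, 30.7 and 26.1 CPM against 19.0, 11.7 and 0.635 CPM. Neither overlapped and neither passed (log2 -2.43 ± 1.16 and -1.67 ± 0.86). The strand setting of the counting was not given, and 1271 of the 4338 exonic bases of Kif20a overlap Cdc23 on the other strand, the most of the 9 members with such an overlap. The remaining 5 members of this group (Kif11, Kif23, Nusap1, Hmmr and Prc1) all overlapped.

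Cdc20 activates the anaphase-promoting complex, the ligase that ends mitosis, and Ube2c supplies it with ubiquitin. Cdc20 stood at 61.1, 39.4 and 44.3 CPM in non-tuft-like against 17.6, 5.29 and 0.0552 CPM in tuft-like libraries, without overlap (log2 -2.66 ± 1.13, edgeR adjusted p = 0.491). Per kb of exon it had the highest level of the 35 in non-tuft-like libraries, 25.8 CPM per kb beside 21.3 for Pcna. In tuft-like libraries the same measure was 4.09 for Cdc20 and 20.2 for Pcna. Ube2c stood at 8.24, 3.79 and 9.06 CPM against 1.74, 0.672 and 0 CPM, and 592 of its 2600 exonic bases overlap Tnnc2 on the other strand.

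**Figure D2:**
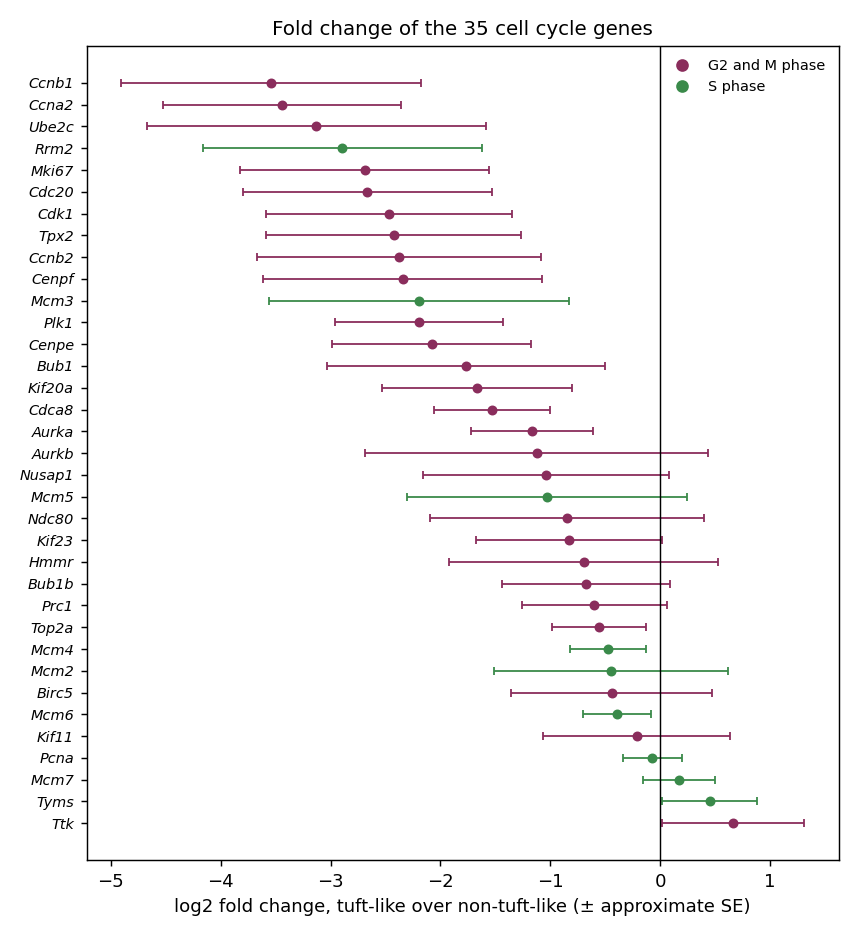
Log2 fold change, tuft-like over non-tuft-like, of each of the 35 members with its approximate SE (points with bars), coloured by programme. 32 points lie below 0, and the SE of single members ranges from 0.27 to 1.56.

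Of the 9 S phase members, 6 had log2 fold changes between -0.48 and 0.45. The helicase genes Mcm6 and Mcm7, whose products unwind DNA at the fork, overlapped: Mcm6 stood at 46.9, 47.3 and 38.7 CPM against 27.1, 40.2 and 33.7 CPM (log2 -0.40 ± 0.31). Mcm7 stood at 50.9, 44.7 and 40.5 CPM against 41.3, 39.4 and 72.9 CPM (log2 0.17 ± 0.33), and tuft-like 3 was its highest library. Exons of Mcm7 overlap Ap4m1 and Cops6 on the other strand. Pcna, the sliding clamp of DNA polymerase, stood at 49.2, 51.1 and 52.9 CPM against 42.6, 51.0 and 51.8 CPM. Its log2 fold change of -0.07 ± 0.27 had the smallest SE of the 35 members. Tyms, which makes thymidylate, stood at 13.2, 13.3 and 21.3 CPM against 23.5, 20.3 and 21.5 CPM (log2 0.45 ± 0.43). Annotated pseudogenes carry the names of Pcna, Tyms, Ccnb1 and Ccnb2, and reads that match a gene and its pseudogene equally are uncertain.

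Mcm2 and Mcm5, named after their values were seen, overlapped between groups but were near or at 0 in tuft-like 3. Mcm2 stood at 18.6, 30.2 and 9.15 CPM against 28.0, 14.2 and 0.276 CPM, and Mcm5 at 21.7, 25.0 and 33.3 CPM against 25.1, 14.03 and 0 CPM. In that library 3 of 9 S phase and 5 of 26 G2 and M phase members had no count.

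Rrm2 and Mcm3 were the 2 of 9 S phase members without overlap, both lower in tuft-like libraries, beside 8.85% of all tested genes. Both were chosen after their values were seen. Rrm2, the regulated subunit of ribonucleotide reductase, stood at 21.4, 20.0 and 20.1 CPM in non-tuft-like against 4.46, 3.83 and 0 CPM in tuft-like libraries (log2 -2.89 ± 1.27, edgeR adjusted p = 0.531). Mcm3 stood at 33.4, 11.1 and 8.04 CPM against 4.88, 6.58 and 0 CPM (log2 -2.20 ± 1.37).

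The members of each programme were also summed in each library. G2 and M phase members summed to 599.7, 434.1 and 497.3 CPM in non-tuft-like and to 281.6, 179.0 and 65.6 CPM in tuft-like libraries, or 510.4 ± 83.6 against 175.4 ± 108.1 CPM (SD, n = 3 each), 2.91-fold higher in non-tuft-like. S phase members summed to 287.9, 289.3 and 258.3 CPM against 225.2, 222.6 and 200.6 CPM, a 1.29-fold difference between the means of 278.5 ± 17.5 and 216.1 ± 13.6 CPM. The G2 and M phase sum was 2.08, 1.501 and 1.92 times the S phase sum in non-tuft-like libraries and 1.25, 0.804 and 0.327 times in tuft-like libraries. In tuft-like 2 and 3 the S phase sum was the larger.

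Background signal was gauged from 1092 olfactory receptor genes, which mTEC may also transcribe at a low level as tissue-restricted antigens. Their mean was 0.179, 0.194 and 0.432 CPM per kb in the non-tuft-like libraries and 0.631, 0.364 and 0.0725 CPM per kb in the tuft-like libraries. The library with the lowest such level, tuft-like 3, was also the one with the lowest G2 and M phase sum, with 24233 genes detected by at least 1 count where the other libraries had 32670 to 44068, and with 19.7% of its counts outside annotated features where they had 34.4 to 61.6%. The part of these differences between libraries in the member levels was not tested. Of the 35 members, 30, 26 and 25 exceeded the 99th percentile of olfactory receptor genes in the non-tuft-like libraries and 16, 13 and 9 did so in the tuft-like libraries. That percentile differed between libraries, from 1.26 CPM per kb in tuft-like 3 to 2.78 in tuft-like 1. The share of all genes that exceeded it was not counted, so the drop cannot be assigned to the members. After the mean olfactory level was subtracted from every gene by length, 32 of 35 log2 fold changes were negative, with a median log2 fold change of -1.39.

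**Figure D3:**
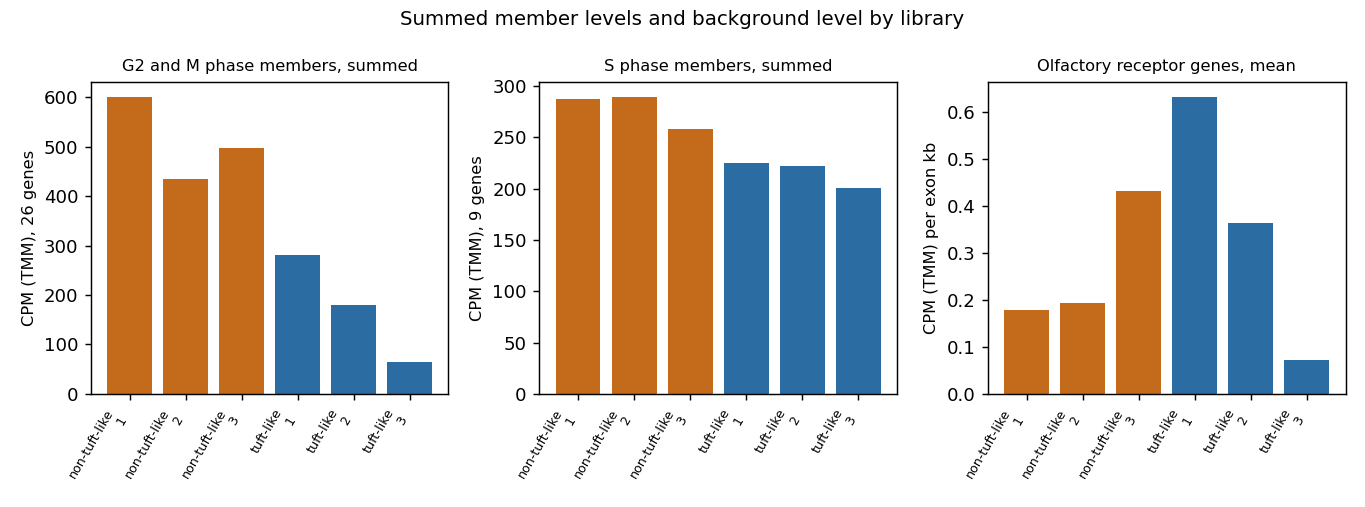
Summed TMM-normalised CPM of the 26 G2 and M phase members and of the 9 S phase members, and mean CPM per exon kb of 1092 olfactory receptor genes, as 1 bar per library. Tuft-like 3 has the lowest bar in all 3 panels and tuft-like 1 the highest olfactory receptor bar.

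Other genes of the cell cycle were taken from 5 lists of 122 genes in all. Of 40 other G2 and M phase genes, 0 passed the adjusted threshold, 4 were lower at an unadjusted p under 0.05 (Ckap2l, Troap, Cks1b and Smc2), beside 4.59% of all genes. DESeq2 called 2 lower (5.01% of 18579 genes), 14 were lower without overlap (8.85% of all genes) and the median log2 fold change was -0.99. Cks1b, a small subunit of CDK complexes chosen after its values were seen, stood at 24.6, 24.8 and 22.5 CPM against 9.05, 6.08 and 4.14 CPM (log2 -1.90 ± 0.51, edgeR adjusted p = 0.113). The 2 genes of the list with the highest mean CPM had fold changes near 0. Cdc25b, a phosphatase that activates Cdk1, had a log2 fold change of -0.25 ± 0.32 and Pttg1 (securin) one of -0.07 ± 0.29. CHR matches stood in 25 of 33 genes of this list with a promoter (75.8%).

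Of 36 other S phase genes, 0 passed and 0 were lower at an unadjusted p under 0.05, beside 4.59% of all genes. At that level 1 was higher. Log2 fold changes were negative in 20 and positive in 16, with a median of -0.02. The higher gene was Lig1, the replicative DNA ligase, also chosen after its values were seen, at 23.4, 19.4 and 11.8 CPM against 23.1, 29.9 and 57.5 CPM, where the groups overlapped. By CPM not adjusted for length, the highest were Slbp, whose product binds histone mRNA, and Rrm1, the large subunit of ribonucleotide reductase, which had log2 fold changes of 0.14 ± 0.35 and -0.28 ± 0.34. E2F matches stood in 12 of 29 genes of this list with a promoter (41.4%).

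Among 15 G1 cyclins, CDKs and cell cycle transcription factors, 1 gene was called, and it was lower, as were 0.951% of all genes. Log2 fold changes were negative in 10 and positive in 5, with a median of -0.87. Without overlap, 3 genes were lower (8.85% of all genes) and 1 was higher (7.18%). Cdk2, the kinase partner of cyclins E and A, was higher without overlap and at an unadjusted p under 0.05 (log2 1.13 ± 0.49, edgeR adjusted p = 0.517). Ccnd2 (ENSMUSG00000000184, chr6:127125162-127152193), a D-type cyclin that couples mitogen signals to the cycle, was the called gene and stood at 398.2, 383.4 and 270.6 CPM in non-tuft-like and at 76.8, 91.7 and 105.3 CPM in tuft-like libraries. Its groups lay far apart, and its log2 fold change of -1.94 ± 0.29 passed (edgeR adjusted p = 0.00673). Without tuft-like 2 the call was lost (edgeR adjusted p = 0.061). The related Ccnd3 overlapped between groups at 122.9, 62.3 and 70.0 CPM against 92.2, 130.6 and 123.1 CPM, and Cdk4, their partner, had a log2 fold change of -0.29 ± 0.32. These and Cdk2 were chosen after their values were seen. Of the exonic bases of Ccnd2, 740 of 9409 overlap genes on the other strand.

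Stmn1 was the called gene among 16 genes abundant in transit-amplifying cells, lower in tuft-like libraries as were 0.951% of all genes by that test. It lies at chr4:134468320-134473843 (ENSMUSG00000028832), encodes stathmin, which destabilises microtubules, and stood at 70.9, 94.9 and 70.0 CPM against 25.0, 22.5 and 33.1 CPM (log2 -1.55 ± 0.30, edgeR adjusted p = 0.0248). The call was lost when non-tuft-like 1, non-tuft-like 2, tuft-like 1 or tuft-like 2 was left out, with an edgeR adjusted p of up to 0.189. In this list 13 log2 fold changes were negative and 3 positive, with a median of -0.21. At an unadjusted p under 0.05, 2 genes were lower (4.59% of all genes), and 3 were lower without overlap (8.85%). Ptma and Hmgb1, which code for chromatin-associated proteins and had the highest mean CPM of the list, stood at log2 fold changes of -0.00 ± 0.37 and 0.15 ± 0.32. No gene of 15 inhibitors of cell cycle entry was called by edgeR, and 1 was lower at an unadjusted p under 0.05 and by DESeq2. This was Cdkn2b, an inhibitor of Cdk4 and Cdk6 chosen after its values were seen, at 136.3, 135.0 and 130.9 CPM against 45.3, 48.7 and 93.0 CPM (log2 -1.10 ± 0.33, edgeR adjusted p = 0.163). Btg2 and Cdkn1a, with the highest mean CPM of the list, had log2 fold changes of -0.15 ± 0.38 and -0.27 ± 0.37. Over the 15 inhibitors, 7 log2 fold changes were negative and 8 positive, with a median of 0.20.

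**Figure D4:**
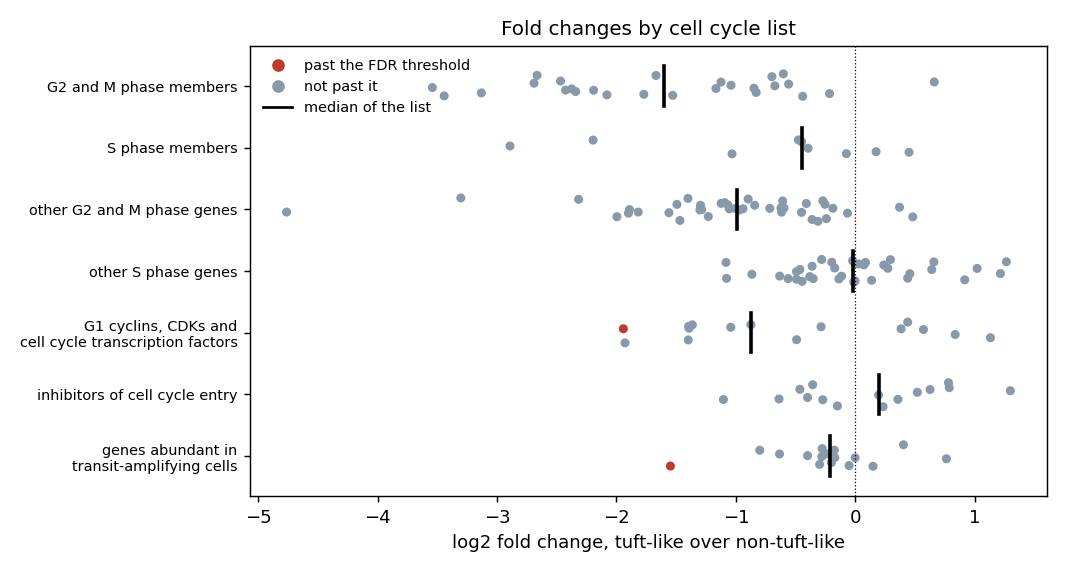
Log2 fold change, tuft-like over non-tuft-like, of each tested gene (points) in the member groups and in 5 further cell cycle lists, with the median of each list as a black bar and genes past the adjusted threshold in red. Most genes of the G2 and M phase lists lie to the left of 0, the other S phase genes centre on it, and Ccnd2 and Stmn1 are the red points.

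Other dividing cells of the thymus were read from their own markers. The study describes its tuft-like gate within CD45- EpCAM1+ cells, and whether other cells passed that gate was not tested. Of 14 thymocyte markers, 13 were tested and 0 were called by edgeR, with 1 higher at an unadjusted p under 0.05 and by DESeq2 (Themis). Their sum was 27.3, 54.7 and 41.8 CPM in non-tuft-like against 97.9, 68.8 and 52.9 CPM in tuft-like libraries, with Ptprc at the highest CPM, and 1, 3, 1, 0, 1 and 5 of the 14 were at 0. The groups of these sums overlapped, with the higher mean in tuft-like libraries, opposite to the G2 and M phase members. Of 8 erythroid markers, 0 were called by edgeR and 4 were lower at an unadjusted p under 0.05 (4.59% of all genes). DESeq2 called 4 lower (5.01% of 18579 genes), 5 were lower without overlap (8.85% of all tested genes), and 3 had positive log2 fold changes. Their sum was 238.1, 384.4 and 326.6 CPM against 121.2, 165.7 and 92.4 CPM, with Hba-a1 at the highest CPM. The erythroid sum was lower in tuft-like libraries, as was the G2 and M phase sum. The part of thymocytes or erythroid cells in the member levels was not tested.

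Markers of epithelial stage were read as well. Of 10 immature and intertypical TEC markers listed, 9 matched a single gene row and were tested. Among these, 1 was called, lower in tuft-like libraries as were 0.951% of all genes. At an unadjusted p under 0.05, 7 were lower, beside 4.59% of all genes (median log2 fold change -1.52). The called gene was Krt14, a keratin of basal epithelium, at 374.6, 311.3 and 276.7 CPM against 18.02, 29.4 and 38.2 CPM. Of 6 general epithelial markers, 3 were negative and 3 positive (median log2 fold change -0.17). The called gene among them, Foxn1, the master regulator of thymic epithelium, was lower in tuft-like libraries (log2 -3.48 ± 0.30). At an unadjusted p under 0.05, 2 of the 6 were lower (4.59% of all genes) and 1, Krt18, was higher (log2 1.04). DESeq2 also called 2 lower and 1, Krt18, higher. The part of this difference in cell stage in the levels of the cell cycle genes was not tested.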

How the data were processed

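Counts were deposited by the authors as 1 table of whole read counts per gene for 6 libraries, with 52636 gene rows. Per the labels, RNA was prepared with an ultra-low input kit, reads were trimmed with Trimmomatic 0.36, aligned to mm10 with STAR 2.7.3a and counted with HTSeq. The annotation release and strand setting were not given in the sources used here. Symbols, coordinates and exon lengths came from GENCODE M21, which named 99.7% of the rows. Rows that name no gene held 27.1 to 66.6% of a library's counts and were left out, as were 92 spike-in rows, all at 0. Depth on genes was 20097617 to 48369825 counts, and limits from counts cover counting error only.

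The filter on low counts was filterByExpr (at least 10 counts, total at least 15). Libraries were scaled by TMM and tested with edgeR 4.0.16 (quasi-likelihood, Benjamini-Hochberg, threshold 0.05) in R 4.3.3, tuft-like over non-tuft-like, without covariates. SE was the log2 fold change over the square root of F. The script was tested on simulated data. Alternatives used limma 3.58.1, DESeq2 1.42.0, other scalings and filters, background subtraction and each library left out. Values per library were printed for the 2 members of each role with the highest mean CPM, not adjusted for length, and for called genes. Of the other lists, called genes were named, or else the 2 with the highest mean CPM. Genes named outside this rule, Ptma, Hmgb1 and Themis among them, were chosen after their values were seen. The members and lists were chosen with earlier results of these data known.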

Additional observations from a re-analysis of the deposited data

How the results depend on the processing

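Fewer than 10 counts were found for 16 members in tuft-like 3, for 1 in tuft-like 1 and for 0 in tuft-like 2, and the common biological coefficient of variation was 1.10. Members called, all lower, numbered 0 in edgeR's test with TMM and also with RLE factors, library size alone, voom, a mean of at least 10 CPM (25 members tested) and the replicate block. They numbered 3 with DESeq2, 2 without a filter (Ccnb1 and Cdc20), 1 with background counts subtracted (Cenpf), and 0 to 1 when each library was left out, where Rrm2 was called without tuft-like 3. The causes were not tested.

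Of all genes, 687 were called (309 lower, 378 higher). The count was 1045 with library size alone (526 lower), 1904 with DESeq2 (930 lower, 974 higher), 1127 without a filter (577 lower), 1547 at a mean of at least 10 CPM (706 lower, 841 higher) and 1054 with background counts subtracted (504 lower). Leaving out each library gave 376 to 922 genes, 154 to 612 lower and 220 to 467 higher.

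Called genes of the other cell cycle lists were 2, and 4 with library size alone, 5 with DESeq2, 5 at a mean of at least 10 CPM and 0 to 4 with each library left out. Ccnd2 was called in 13 of 14 alternatives and lost without tuft-like 2, and Stmn1 in 10 of 14 and lost without non-tuft-like 1, non-tuft-like 2, tuft-like 1 or tuft-like 2. Marker genes called were 30, and 47 with DESeq2. The members' median log2 fold change was -2.62 with voom and -1.92 to -0.58 with each library left out.

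With each library left out, 5 members changed sign. The log2 fold change ranged from -0.89 to 0.21 for Kif11 (positive without tuft-like 3), -1.41 to 0.085 for Mcm2 (positive without tuft-like 3 and, at 0.015, without non-tuft-like 2), -0.21 to 0.33 for Mcm7 (negative without tuft-like 3), -0.16 to 0.015 for Pcna (positive without tuft-like 1) and -1.51 to 0.30 for Ndc80 (positive without non-tuft-like 1).

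Deviations of same-numbered libraries from their group means correlated at -0.156, -0.061 and -0.326. With 3 libraries in each group, this check cannot tell whether same-numbered libraries came from the same thymi. With the replicate block, 0 members and 737 genes were called.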

Other observations

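Markers of further cell types were read beside the cell cycle genes. Log2 fold changes were negative for 8 of 8 keratinocyte genes, with Dmkn, Sbsn, Ivl and Spink5 past the adjusted threshold of edgeR's test and a list median log2 fold change of -3.09. Spink5, a protease inhibitor of stratified epithelium, stood at 663.5, 1043 and 799.6 CPM in non-tuft-like and at 41.2, 85.6 and 196.7 CPM in tuft-like libraries. The summed keratinocyte level was highest among tuft-like libraries in tuft-like 3, at 1465 CPM beside 161.5 and 550.3 CPM, so the order of these libraries was opposite to that of the G2 and M phase members.

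Cd79b, a part of the B cell receptor, was higher in tuft-like libraries at 8.58, 11.4 and 5.28 CPM against 47.9, 83.5 and 101.5 CPM, and was the called gene among 7 B cell markers, of which 3 had negative and 4 positive log2 fold changes (median 0.15). Tek, an endothelial receptor, stood at 22.2, 36.7 and 11.4 CPM against 169.2, 141.8 and 225.0 CPM, and was called among 6 endothelial markers, 5 of them positive (median log2 fold change 1.07). Cd68, a lysosomal protein of macrophages, was lower at 32.2, 37.1 and 48.7 CPM against 3.60, 4.44 and 3.92 CPM, and was called among 10 macrophage and dendritic cell markers, 9 of them negative (median log2 fold change -0.76). Of 6 fibroblast markers 0 were called by edgeR, 0 stood at an unadjusted p under 0.05 and DESeq2 called 0, while 6 of 6 log2 fold changes were positive (median 1.29).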
